A study of Homo sapiens with 12 samples.

Results

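The 10 genes described here belong to the BCL2 family, which governs the mitochondrial route of apoptosis, and were followed in a pair of established human melanoma cell lines with and without interferon gamma (IFN-γ). They were chosen by symbol from the gene count tables, as *BCL2*, *BCL2A1*, *BCL2L1*, *MCL1*, *BAX*, *BAK1*, *BID*, *BBC3*, *PMAIP1* and *BCL2L11*, by a rule that sets no threshold on a measured value. All 10 were found among 44700 genes, and all 10 were among the 15810 genes with enough counts to be tested. Total RNA from SK-MEL-5 and from MALME-3M was sequenced in 12 libraries, 3 in each of 4 groups. SK-MEL-5 cells were untreated or received IFN-γ at 150 ng/mL for 24 h, and MALME-3M cells were untreated or received it at 200 ng/mL for 24 h. All 4 groups carry the genotype label WT, and the cells were seeded in triplicate wells with the cytokine added at seeding. Each line is a single model, and nothing says that the wells came from separate cultures, so p-values measure only the spread between these libraries. The lines also differed in dose, medium and serum content, so line, dose and culture conditions cannot be told apart.

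Members of the BCL2 family decide whether the outer mitochondrial membrane stays intact. BCL2, BCL-XL (encoded by *BCL2L1*), MCL1 and BFL1 (encoded by *BCL2A1*) bind and hold back the death-promoting members. BAX and BAK (encoded by *BAK1*) form the pores that release cytochrome c. The BH3-only proteins BID, PUMA (encoded by *BBC3*), NOXA (encoded by *PMAIP1*) and BIM (encoded by *BCL2L11*) start this step, by binding the protective members or by activating the pore formers. NOXA binds MCL1 and BFL1 in preference to the other protective members, while BIM and PUMA bind all of them. In melanoma, *BCL2A1* is known as a target of the lineage factor MITF. IFN-γ signals through JAK kinases and raises the transcription factor IRF1.

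Gene counts totalled 15514412 to 22921184 per library, and the members held between 104 counts (*BBC3*) and 3870 counts (*MCL1*) in a library. The response gene *IRF1* matched the treatment labels, with a change on the log2 scale of 5.35 in SK-MEL-5 and of 6.43 in MALME-3M. All 8 melanocyte lineage markers were detected. Their summed levels, untreated and treated, were 6059 to 6360 and 5650 to 5842 CPM in SK-MEL-5. In MALME-3M they were 6350 to 6434 and 5962 to 6138 CPM. Marker levels in this paragraph are gene counts per 1000000 counts (CPM) of each library's gene total, unscaled. All other CPM values use library sizes scaled by the trimmed mean of M values (TMM). Of the markers of other cell types, T cell genes summed to at most 0.0645 CPM and myeloid genes to at most 0.967 CPM. *PTPRC*, the pan-leukocyte gene, had 0 counts in MALME-3M and 0.451 to 0.953 CPM in SK-MEL-5. Endothelial genes summed to 0.252 to 1.78 CPM and fibroblast genes to 2.86 to 10.7 CPM. Epithelial genes summed to 2.27 to 10.5 CPM in untreated and 1.17 to 1.42 CPM in treated SK-MEL-5, and to 403 to 410 and 328 to 360 CPM in MALME-3M. These unscaled melanocyte and epithelial sums were lower in treated libraries of both lines without overlap, and the epithelial sums were higher in MALME-3M. Single markers did not all follow the sums. By edgeR at an adjusted p below 0.05, 0 melanocyte genes were higher and 2 lower in SK-MEL-5. In MALME-3M, 2 were higher and 2 lower. Over all genes tested, 5.98% and 7.05%, and 9.51% and 8.77%, were. Of 3 epithelial genes tested, 1 (*CDH1*) was lower in SK-MEL-5 and 0 in MALME-3M. Between the untreated lines, single melanocyte genes differed by edgeR, on the log2 scale. *TYRP1* (-6.23) and *DCT* (-1.35) were lower in MALME-3M, and *PMEL* (0.99), *TYR* (0.72) and *S100B* (1.95) were higher. *MITF*, *SOX10* and *MLANA* were not called. The part of these markers in the members' differences was not tested.

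After IFN-γ, transcripts of the BH3-only gene *PMAIP1* and of the protective gene *MCL1* rose in both lines. *BCL2L11* rose in SK-MEL-5, and *BCL2A1* fell in MALME-3M. In SK-MEL-5, 3 of the 10 genes were higher at an adjusted p below 0.05 (edgeR, quasi-likelihood, with Benjamini-Hochberg values taken over the whole table). Over all genes tested, 5.98% were higher. None of the 10 was called lower in SK-MEL-5, where 7.05% of all genes were. At an unadjusted p below 0.05, 1 member (*BCL2L1*) was lower in edgeR, and DESeq2 also called 0 lower after adjustment. In MALME-3M, 2 members were higher and 1 was lower, where 9.51% of all genes were higher and 8.77% lower. The members' median change was 0.0039 on the log2 scale in SK-MEL-5, against -0.027 over all genes tested, and 0.093 in MALME-3M, against 0.00074. Levels of treated and untreated libraries did not overlap for 6 of the 10 genes in SK-MEL-5, where this held for 29.1% of all genes tested. In MALME-3M they did not overlap for 6 of 10, against 33.1% of all genes. The plot of CPM by library shows every value, and the plot of fold changes sets both lines side by side.

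**Figure D1:**
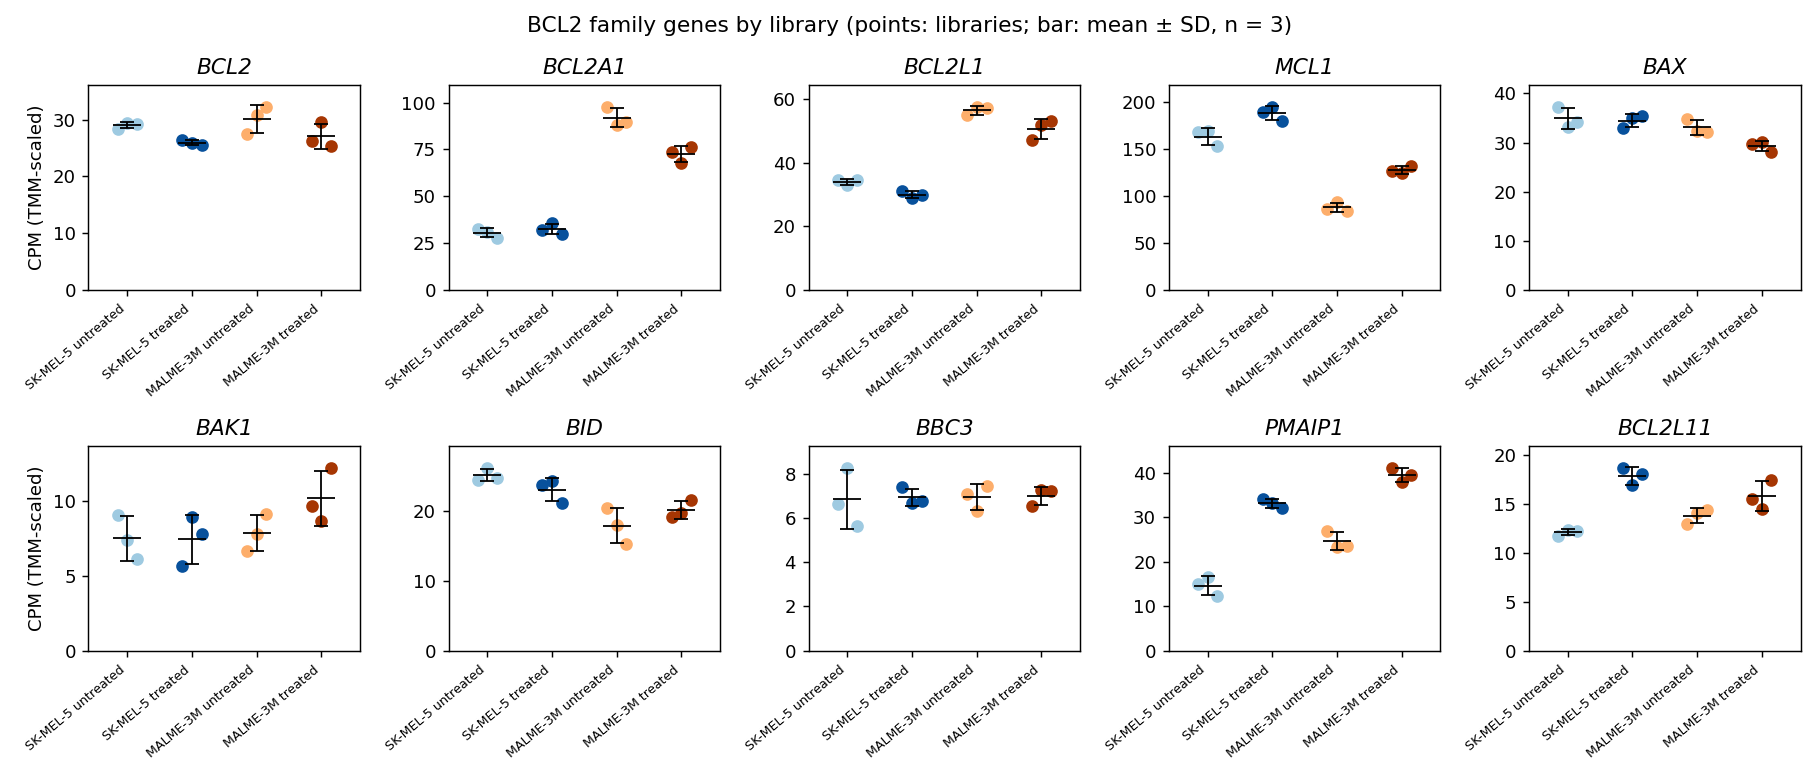
Levels of the 10 BCL2 family genes in CPM (TMM-scaled, linear axis from 0) in each of the 12 libraries, with points for libraries and bars for the mean ± SD of 3. *PMAIP1* and *MCL1* lay higher in treated than in untreated libraries of both lines without overlap, and *BCL2A1* lay lower in treated MALME-3M.

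**Figure D2:**
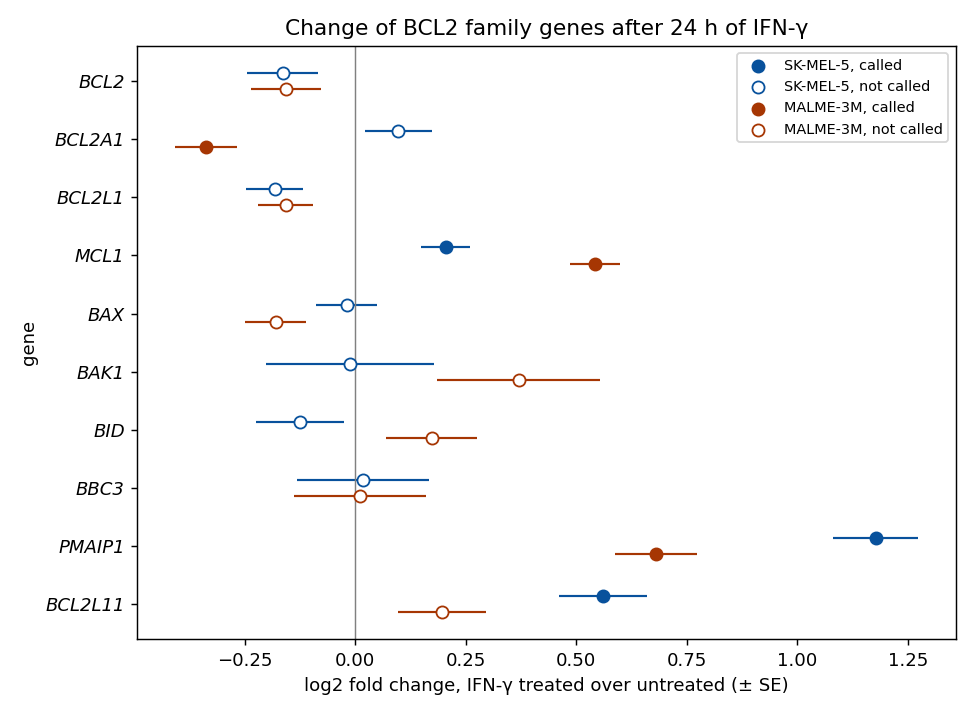
Log2 fold change ± SE of each member, treated over untreated, from edgeR's fit, with filled points for an adjusted p below 0.05. *PMAIP1* has the farthest points to the right in both lines, at 1.18 in SK-MEL-5 and 0.68 in MALME-3M, and *BCL2A1* has a filled point left of 0 only in MALME-3M.

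Of the 4 protective genes, *MCL1*, whose short-lived protein guards against BAK and BIM, lies on chromosome 1 (GENCODE 29 on GRCh38, 150574551 to 150579738, minus strand). Its level was 168, 169 and 153 CPM in the 3 untreated SK-MEL-5 libraries and 189, 195 and 180 CPM in the treated ones. MALME-3M libraries had 86.3, 93.3 and 83.8 CPM untreated and 127, 125 and 132 CPM treated. Treated and untreated libraries did not overlap in either line, and each SK-MEL-5 library lay above each MALME-3M library. The change was 0.20 ± 0.056 (log2, SE) in SK-MEL-5 (adjusted p = 0.0194), a rise of 15.2%. The MALME-3M change was 0.54 ± 0.057 (adjusted p = 1.1e-06), a rise of 45.7%. The SK-MEL-5 call rests on single libraries. It was lost without untreated replicate 3 (0.16, adjusted p = 0.111), without treated replicate 1 (0.20, adjusted p = 0.0625) and without treated replicate 2 (0.18, adjusted p = 0.102). The MALME-3M call held in all 18 alternative analyses, at 0.50 to 0.59.

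*BCL2A1* encodes BFL1, the protective member associated with NF-κB and MITF activity, and lies on chromosome 15 (79960889 to 79971446, minus strand). Its promoter window is printed because it was the single window among those of the members to match both interferon-related motifs searched. The windows come from RefSeq (GRCh38.p14) and run from 250 bases before to 50 bases after the annotated start, with the start base counted as 0. Of the 10 members, 9 matched an entry, with 14 windows in all, and *MCL1* had none. Searches on both strands covered the core TTCNNNGAA of the gamma-activated site (GAS), the core TTCNNTTTC of the interferon-stimulated response element (ISRE), the M-box TCATGTG and the E-box CACGTG, which MITF and other factors bind, and the κB consensus. Among 35116 windows of this length, 7.66% held the GAS core, 8.11% the ISRE core, 2.92% the M-box, 7.26% the E-box and 11.3% the κB consensus. In the *BCL2A1* window (chr15:79971147-79971446, minus strand, written 5′ to 3′ along the gene), capitals mark, in order, a GAS core (TTCTCTGAA, -168 to -160), an ISRE core (TTCTCTTTC, -132 to -124) and an M-box (-26 to -20):
BCL2A1: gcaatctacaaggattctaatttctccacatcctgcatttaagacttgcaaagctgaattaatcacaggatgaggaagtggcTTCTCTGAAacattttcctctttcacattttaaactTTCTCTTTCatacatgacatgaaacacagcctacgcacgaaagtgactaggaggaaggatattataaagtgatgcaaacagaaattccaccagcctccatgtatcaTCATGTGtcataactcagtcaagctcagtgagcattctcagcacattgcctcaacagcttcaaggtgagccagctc
These matches describe letters, not bound sites.

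In untreated MALME-3M, *BCL2A1* stood at 97.8, 88.3 and 89.8 CPM, and in treated MALME-3M at 73.9, 68.0 and 76.3 CPM. Every treated library lay below every untreated one. The change was -0.34 ± 0.071 on the log2 scale (adjusted p = 0.00211), or -20.9%, and it was called in all 18 alternatives (-0.39 to -0.29). In SK-MEL-5 the gene stood at 32.6, 31.0 and 27.8 CPM untreated and at 32.2, 35.6 and 29.8 CPM treated. These ranges overlapped, and the change of 0.10 ± 0.076 did not pass the test (adjusted p = 0.486). *MITF* itself was at 601 ± 34 CPM (SD, n = 3) in untreated and 605 ± 6.9 CPM in treated SK-MEL-5, and at 590 ± 26 and 622 ± 60 CPM in MALME-3M. Its change passed the test in neither line (adjusted p = 0.957 and 0.442), nor did its difference between the untreated lines (-0.03 ± 0.060, adjusted p = 0.696).

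*BCL2L1*, the gene of BCL-XL, was at 34.5, 33.0 and 34.5 CPM in untreated and 31.0, 28.9 and 29.9 CPM in treated SK-MEL-5. In MALME-3M it was at 55.0, 57.6 and 57.1 CPM untreated and 47.1, 51.7 and 53.2 CPM treated. Treated libraries lay below untreated ones in both lines without overlap. Neither change passed the test over all genes, at -0.18 ± 0.064 (adjusted p = 0.0715) in SK-MEL-5 and -0.16 ± 0.061 (adjusted p = 0.0880) in MALME-3M. It was called lower in MALME-3M with upper-quartile scaling (-0.18, adjusted p = 0.0456) and without treated replicate 3 (-0.21, adjusted p = 0.0398). The founding member *BCL2* was at 29.04 ± 0.54 and 25.93 ± 0.42 CPM in SK-MEL-5 and at 30.2 ± 2.5 and 27.1 ± 2.2 CPM in MALME-3M, untreated and treated. Its estimates were close to each other in the lines (-0.16 ± 0.081 and -0.16 ± 0.080) and passed the test in neither (adjusted p = 0.221 and 0.206).

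Neither pore former passed the test in either line. *BAX*, whose product moves from the cytosol to mitochondria, was at 37.3, 33.3 and 34.3 CPM in untreated and 32.9, 35.1 and 35.4 CPM in treated SK-MEL-5 (-0.02 ± 0.069, adjusted p = 0.920). MALME-3M libraries stood at 34.9, 32.3 and 32.2 CPM untreated and 29.6, 30.1 and 28.1 CPM treated. The MALME-3M groups did not overlap, and the change was -0.18 ± 0.070 (adjusted p = 0.0858), called lower only with upper-quartile scaling (-0.21, adjusted p = 0.0465). *BAK1*, whose product sits in the outer membrane, was among the lowest members, with 111 to 272 counts per library. It was at 7.49 ± 1.5 and 7.42 ± 1.7 CPM in SK-MEL-5 and at 7.85 ± 1.2 and 10.2 ± 1.8 CPM in MALME-3M, untreated and treated. Its groups overlapped in both lines, and its SE of 0.18 in MALME-3M (0.37, adjusted p = 0.193) limits what could be detected. *BAX* holds 4 copies of the E-box CACGTG in its RefSeq window (chr19:48954625-48954924, plus strand), and the window of *BAK1* matched no motif searched.

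Of the 4 BH3-only genes, *PMAIP1*, the NOXA gene, had the largest change of the 10 members in both lines. It lies on chromosome 18 (59899948 to 59904306, plus strand). Its level was 15.01, 16.61 and 12.37 CPM in untreated SK-MEL-5 and 34.19, 33.32 and 32.04 CPM in treated SK-MEL-5. Untreated MALME-3M had 27.06, 23.39 and 23.63 CPM, and treated MALME-3M had 41.23, 38.02 and 39.53 CPM. The lowest treated library lay well above the highest untreated one in each line, and untreated MALME-3M lay above untreated SK-MEL-5. The change was 1.18 ± 0.096 on the log2 scale in SK-MEL-5 (adjusted p = 3.3e-08), a 2.26-fold rise. For MALME-3M it was 0.68 ± 0.093 (adjusted p = 2.7e-05), a 1.60-fold rise. Both calls held in all 18 alternatives, at 1.07 to 1.28 and at 0.64 to 0.75. Its promoter window (chr18:59899746-59900045, plus strand) is printed as that of the member that rose most. None of the motifs searched matched in it, so it has no capitals, and this says only that those letters are not in these 300 bases:
PMAIP1: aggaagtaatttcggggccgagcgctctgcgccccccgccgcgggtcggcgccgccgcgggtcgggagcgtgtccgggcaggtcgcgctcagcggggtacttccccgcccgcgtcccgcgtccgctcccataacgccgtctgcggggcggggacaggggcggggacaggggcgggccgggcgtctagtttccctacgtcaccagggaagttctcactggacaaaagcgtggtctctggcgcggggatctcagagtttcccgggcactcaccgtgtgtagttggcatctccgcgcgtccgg

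*BCL2L11*, the BIM gene, lies on chromosome 2 (111119378 to 111168447, plus strand). It was at 11.77, 12.38 and 12.27 CPM in untreated and 18.73, 16.90 and 18.11 CPM in treated SK-MEL-5. MALME-3M libraries had 12.99, 14.05 and 14.42 CPM untreated and 15.51, 14.52 and 17.45 CPM treated. Groups did not overlap in either line, although in MALME-3M the highest untreated and lowest treated library were close. The change of 0.56 ± 0.10 in SK-MEL-5 (adjusted p = 6.6e-04) was a 1.47-fold rise. That of 0.20 ± 0.10 in MALME-3M did not pass the test (adjusted p = 0.203). The SK-MEL-5 call held in 17 of 18 alternatives and was lost with summed transcript estimates (0.49, adjusted p = 0.845), which held 0.0268 to 0.405 of the gene's counts. Exons of *BCL2L11* share 727 bases with the opposite-strand long non-coding gene *MIR4435-2HG*. That gene had 439 to 825 counts in SK-MEL-5 libraries and 1447 to 2897 in MALME-3M libraries. The strand setting of the counting is not given in the sources used here, so reads of the shared bases cannot be assigned to either gene with certainty.

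*BID*, which links death receptors to mitochondria once caspase-8 has cut it, was at 25.1 ± 0.92 and 23.0 ± 1.7 CPM in SK-MEL-5 and at 17.8 ± 2.5 and 20.1 ± 1.3 CPM in MALME-3M, untreated and treated. The estimates were of opposite sign in the lines (-0.12 ± 0.10 and 0.17 ± 0.10), and neither passed the test (adjusted p = 0.505 and 0.285). *BBC3*, the PUMA gene, was the lowest member in CPM, with group means of 6.84 to 7.01 and 104 to 186 counts per library. Its change was 0.02 ± 0.15 in SK-MEL-5 and 0.01 ± 0.15 in MALME-3M (adjusted p = 0.969 and 0.978). The *BBC3* promoter window (chr19:47232618-47232917, minus strand, written along the gene) is shown as that of a member with ISRE core letters whose level did not pass the test. Capitals mark an E-box (-232 to -227) and, after the start, a run that holds 3 overlapping ISRE core matches on the opposite strand (GAAACTGAA, GAAAAAGAA and GAAACGGAA, between 25 and 45):
BBC3: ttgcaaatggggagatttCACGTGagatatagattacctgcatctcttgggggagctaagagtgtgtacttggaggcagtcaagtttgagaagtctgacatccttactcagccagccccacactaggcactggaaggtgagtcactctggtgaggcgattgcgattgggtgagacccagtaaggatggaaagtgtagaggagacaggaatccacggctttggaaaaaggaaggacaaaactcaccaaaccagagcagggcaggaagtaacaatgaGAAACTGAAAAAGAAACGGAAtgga

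The change after IFN-γ differed between the lines for 3 of the 10 members, by the interaction test in edgeR. It was higher in MALME-3M for *MCL1*, and 2.67% of all genes were called in that direction. It was lower in MALME-3M for *BCL2A1* and *PMAIP1*, a direction that 1.79% of all genes took. Over all genes, 422 were called higher and 283 lower in MALME-3M, and with upper-quartile scaling 340 and 351. The difference was 0.34 ± 0.080 on the log2 scale for *MCL1* (adjusted p = 0.0181), -0.44 ± 0.10 for *BCL2A1* (adjusted p = 0.0199) and -0.50 ± 0.13 for *PMAIP1* (adjusted p = 0.0396). These calls lie close to the threshold. *BCL2A1* kept its call in 8 of 12 leave-one-out analyses, *MCL1* in 7 and *PMAIP1* in 4. All 3 kept their sign in each alternative, as the plot of alternative estimates shows. For *BCL2L11* the difference was -0.36 ± 0.14 (adjusted p = 0.181), so its call in SK-MEL-5 alone does not show that the lines differed. The difference for *BID* was 0.30 ± 0.14 (adjusted p = 0.311) and that for *BAK1* 0.38 ± 0.26 (adjusted p = 0.521). For *BCL2*, *BCL2L1*, *BAX* and *BBC3* the estimates lay between -0.16 and 0.025, with SE of 0.089 to 0.21. The IFN-γ dose differed between the lines, and the part of dose in these differences cannot be told apart from that of the line.

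Between the untreated lines, *BCL2A1*, *BCL2L1* and *PMAIP1* were higher in MALME-3M and *MCL1* and *BID* were lower, which makes 3 and 2 of the 10 members. Over all genes tested, 34.5% were called higher, a share near that of the members, and 37.2% lower, a larger share than that of the members. *BCL2A1* was 3.02-fold higher (1.59 ± 0.074, adjusted p = 4.0e-13). *MCL1* was 1.86-fold lower in MALME-3M (-0.90 ± 0.057, adjusted p = 4.4e-11). *BCL2L1* differed by 0.74 ± 0.063 (adjusted p = 3.5e-09), *PMAIP1* by 0.75 ± 0.098 (adjusted p = 1.3e-06) and *BID* by -0.49 ± 0.10 (adjusted p = 2.6e-04). *BCL2*, *BAX*, *BAK1*, *BBC3* and *BCL2L11* did not pass the test, with estimates from -0.07 to 0.19.

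Between the treated lines, 4 members were higher in MALME-3M, where 35.4% of all genes were, and 2 were lower, where 36.4% were. The *BCL2A1* ratio was 2.23-fold (1.16 ± 0.074, adjusted p = 4.8e-11). *MCL1* was 1.47-fold lower in MALME-3M (-0.56 ± 0.056, adjusted p = 4.0e-08). *BCL2L1* differed by 0.76 ± 0.063 (adjusted p = 2.4e-09), close to its value without treatment. The *PMAIP1* difference was 0.25 ± 0.091 (adjusted p = 0.0187), and the call was lost without SK-MEL-5 treated replicate 3 (adjusted p = 0.0628) or MALME-3M treated replicate 1 (adjusted p = 0.0531). *BAK1* was higher (0.46 ± 0.19, adjusted p = 0.0329), a call lost without SK-MEL-5 treated replicate 1 or 3, without MALME-3M treated replicate 3 or with summed transcript estimates. *BAX* was lower (-0.24 ± 0.069, adjusted p = 0.00531), a call lost with summed transcript estimates (-0.18, adjusted p = 0.0822). *BID*, called lower before treatment, differed by -0.20 ± 0.10 after it (adjusted p = 0.0894).

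Per kilobase of exon, a scale on which different genes can be set side by side, the lines differed in which protective gene was most abundant. In untreated SK-MEL-5, *MCL1* made up 47.9% ± 0.63 (SD, n = 3) of the summed level of the 4 protective genes and *BCL2A1* 35.8% ± 1.0. In untreated MALME-3M, *MCL1* made up 16.2% ± 1.1 and *BCL2A1* 68.0% ± 1.8. After treatment the *MCL1* share was 51.2% ± 0.54 in SK-MEL-5 and 25.7% ± 0.33 in MALME-3M. The *BCL2A1* share was then 35.5% ± 1.4 and 58.8% ± 1.4. *BCL2L1* made up 10.7% to 13.8% and *BCL2* 2.03% to 3.17% in the 4 groups. The order of the 4 genes in each group was the same in TPM of annotated transcripts, where untreated *MCL1* shares were 51.8% and 18.1%. These shares are transcript levels and say nothing of protein amounts. The stacked bars of shares show both scales.

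**Figure D3:**
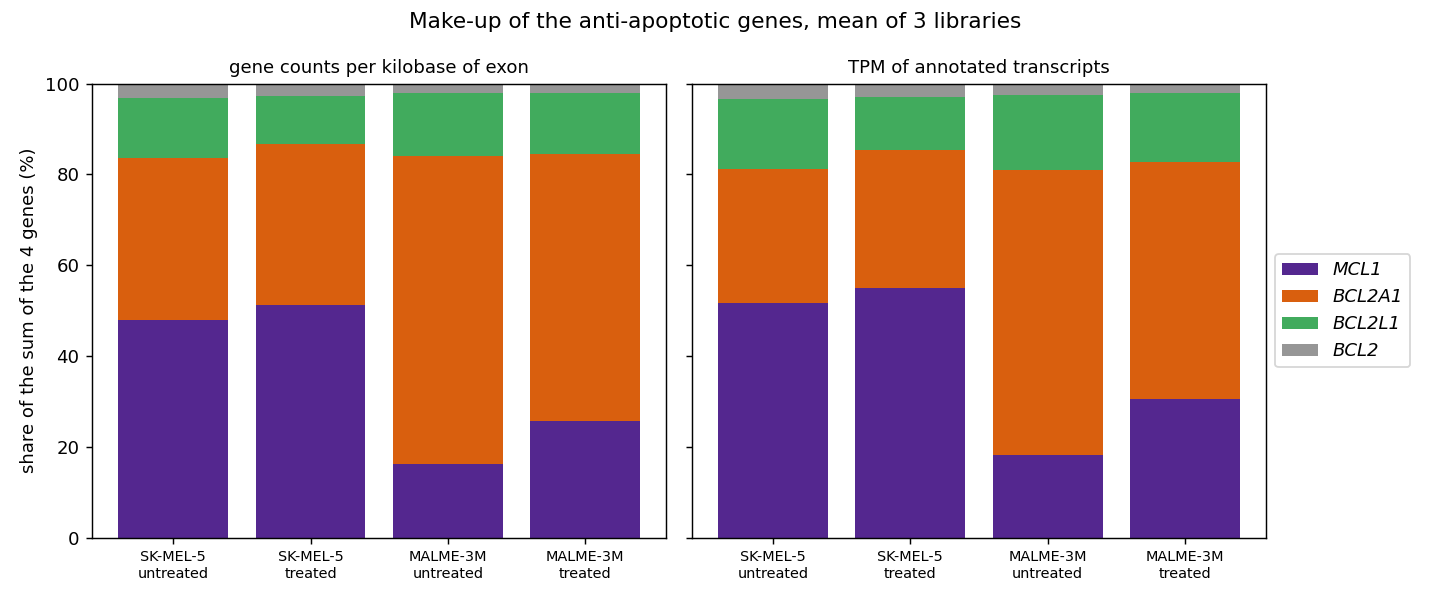
Share of each protective gene in the summed level of the 4, as the mean of 3 libraries, from gene counts per kilobase of exon (left) and from TPM of annotated transcripts (right). *MCL1* is the widest part of the bars of SK-MEL-5 and *BCL2A1* that of the bars of MALME-3M, before and after treatment.

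The summed level of the protective genes, in CPM per kilobase, ran from 73.5 to 81.1 in SK-MEL-5 without and from 79.8 to 88.2 with IFN-γ. MALME-3M sums ran from 121.6 to 128.4 untreated and from 109.1 to 118.5 treated. On this scale the SK-MEL-5 ranges overlapped and the MALME-3M ranges did not, with the treated libraries lower. In TPM of annotated transcripts, the untreated and treated ranges of this sum overlapped in both lines. Summed BH3-only levels were 14.7 to 17.8 and 23.9 to 25.8 in SK-MEL-5 and 18.5 to 20.9 and 25.9 to 27.4 in MALME-3M, untreated and treated. Per kilobase, treated libraries lay above untreated ones in both lines. In TPM of annotated transcripts this held in MALME-3M, while the SK-MEL-5 ranges overlapped. The pore formers summed to 15.3 to 18.5 in all 12 libraries, with overlapping groups. *PMAIP1* made up 40.4% ± 2.4 of the BH3-only sum in untreated and 59.6% ± 0.27 in treated SK-MEL-5, and 57.1% ± 0.90 and 66.1% ± 1.8 in MALME-3M. This share depends on the scale. In TPM, *PMAIP1* made up 20.5% and 36.9% in SK-MEL-5 and 41.1% and 45.3% in MALME-3M, untreated and treated. *BID* made up 68.4% and 54.5% in SK-MEL-5 and 46.9% and 44.9% in MALME-3M on that scale.

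Transcript estimates gave the make-up of 3 of the responding genes. *MCL1* has a long form, whose protein protects, and a short form without the middle exon, whose protein promotes death. The annotated 3-exon transcript of 350 codons (MCL1-202) held 60.6% ± 3.3 and 57.2% ± 3.4 of the gene's estimated counts in SK-MEL-5, untreated and treated. It held 57.6% ± 3.9 and 53.3% ± 6.4 in MALME-3M. The 2-exon transcript of 271 codons (MCL1-201) held 23.2% ± 1.7 and 21.7% ± 0.81 in SK-MEL-5 and 20.9% ± 1.8 and 24.9% ± 4.0 in MALME-3M. Treated and untreated ranges of both transcripts overlapped in both lines. In TPM, which divides by length, the shorter one held more, at 50.6% against 34.3% in untreated SK-MEL-5.

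For *BCL2A1*, the transcript of 175 codons (BCL2A1-201) held 33.2% ± 6.0 and 37.3% ± 3.2 of the estimated counts in SK-MEL-5, and 42.2% ± 1.7 and 45.7% ± 3.5 in MALME-3M. All 6 MALME-3M libraries lay narrowly above all 6 SK-MEL-5 libraries in this share, while treated and untreated libraries overlapped within each line. For *PMAIP1*, the transcript of 54 codons (PMAIP1-202) held 76.8% ± 9.3 and 68.8% ± 4.3 in SK-MEL-5 and 65.4% ± 5.2 and 76.2% ± 3.7 in MALME-3M. Untreated and treated libraries overlapped in SK-MEL-5. In MALME-3M they did not, at 63.4%, 71.3% and 61.5% untreated and 78.1%, 71.9% and 78.5% treated. Annotated transcripts held only 49.9% to 55.2% of each library's estimated counts, and for *PMAIP1* 0.563 to 0.619 of the gene counts, so these shares describe part of the reads.

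Of the remaining family genes, *HRK* was the one called in both lines. Of 13 listed, 11 were tested, with 2 higher and 2 lower in SK-MEL-5 (median -0.081 against -0.027 over all genes) and 0 higher and 1 lower in MALME-3M (0.013 against 0.00074). Over all genes tested, 5.98% were higher and 7.05% lower in SK-MEL-5, and 9.51% and 8.77% in MALME-3M. *HRK*, a BH3-only gene best known from neurons, was at 12.4 ± 0.51 and 8.06 ± 0.48 CPM in SK-MEL-5 and at 8.70 ± 0.69 and 4.56 ± 0.47 CPM in MALME-3M. It fell in both lines (-0.62 ± 0.12, adjusted p = 0.00145, and -0.93 ± 0.13, adjusted p = 3.4e-05). In SK-MEL-5, the BH3-only gene *BIK* rose from 8 to 49 counts summed over 3 libraries (2.69 ± 0.70, adjusted p = 0.0138). *BCL2L13*, a mitochondrial outer membrane protein gene, rose (0.23 ± 0.048, adjusted p = 0.00329). *BNIP3L*, which serves in mitophagy, fell (-0.18 ± 0.060, adjusted p = 0.0492). *BIK* in MALME-3M, with 24 and 65 counts, did not pass the test (1.25 ± 0.56, adjusted p = 0.143).

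The death receptor arm, which ends in the cleavage of BID, had 3 of 11 genes higher and 0 lower in SK-MEL-5, and 6 of 11 higher and 0 lower in MALME-3M. Over all genes tested, 5.98% and 9.51% were higher and 7.05% and 8.77% lower. The medians of the arm were 0.19 and 0.27, against -0.027 and 0.00074 over all genes. *CASP8*, the protease that cuts BID, was at 35.0 ± 2.2 and 61.8 ± 2.3 CPM in SK-MEL-5 and at 79.0 ± 1.5 and 108 ± 5.1 CPM in MALME-3M, untreated and treated. It rose in both lines (0.82 ± 0.058, adjusted p = 3.8e-09, and 0.45 ± 0.055, adjusted p = 7.5e-06), and less in MALME-3M (difference -0.37 ± 0.080, adjusted p = 0.0104). The receptor gene *FAS* rose by 0.60 ± 0.15 (adjusted p = 0.00986) and 0.41 ± 0.14 (adjusted p = 0.0444). *TNFSF10*, the gene of the ligand TRAIL, rose in MALME-3M from 9 to 143 counts summed over 3 libraries (3.75 ± 0.60, adjusted p = 1.5e-04).

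Downstream of the pore, 1 of 19 genes of the apoptosome, the caspases and their inhibitors was higher and 2 were lower in SK-MEL-5, and 1 was higher and 3 were lower in MALME-3M. These counts are close to the shares of all genes, 5.98% higher and 7.05% lower in SK-MEL-5 and 9.51% and 8.77% in MALME-3M. Medians were -0.069 and -0.029, against -0.027 and 0.00074 over all genes. *CYCS*, the gene of cytochrome c, fell in both (-0.26 ± 0.060, adjusted p = 0.00584, and -0.47 ± 0.060, adjusted p = 1.2e-05). Of 7 genes that set the stability of family proteins, such as the MCL1 ubiquitin ligase gene *HUWE1*, 6 were tested and edgeR called 0 in either line (medians -0.047 and -0.0046).

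Of 18 listed transcription factors known to act on family genes, 17 were tested. In SK-MEL-5, 3 were higher and 1 lower, where 5.98% and 7.05% of all genes were, and the median was 0.092 against -0.027 over all genes. In MALME-3M, 8 were higher and 1 lower, where 9.51% and 8.77% of all genes were, and the median was 0.21 against 0.00074. *STAT3*, known to act on *MCL1* and *BCL2L1*, rose by 0.67 ± 0.047 in SK-MEL-5 (adjusted p = 3.1e-09) and by 1.16 ± 0.048 in MALME-3M (adjusted p = 8.0e-13). That rise was larger in MALME-3M (difference 0.50 ± 0.066, adjusted p = 1.1e-04). The forkhead factor gene *FOXO3* fell in SK-MEL-5 (-0.39 ± 0.091, adjusted p = 0.00682).

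Across the 12 libraries, the tested genes that followed a responding member most closely were taken on log2 of CPM plus 1. They were *SEPT6* (Pearson r = 0.991) and *RFX5* (0.989) for *MCL1*, and *RP11-231C14.7* (0.994) and *VANGL1* (0.993) for *BCL2A1*. They were *SPTLC3* (0.987) and *APOL1* (0.979) for *PMAIP1*, and *RSAD2* (0.967) and *LNX2* (0.933) for *BCL2L11*. In untreated SK-MEL-5, *RP11-231C14.7*, *SPTLC3* and *RSAD2* averaged only 0.642, 0.655 and 0.411 CPM, less than the 1 added. The libraries form 4 groups, and line and treatment drive these values, so they are descriptions without a test. *RFX5*, for example, had group means of 114, 138, 40.3 and 78.8 CPM, in the same order as those of *MCL1*.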

How the data were processed

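Each library has a table of gene counts and a table of transcript abundances, both deposited by the authors. Gene counts are whole numbers without normalization, per the file headers and summary lines, which are those of HTSeq, and the 5 summary lines were left out. The abundance tables give an estimated count and a TPM value per transcript, as kallisto writes them, per the file headers. Per the submitters' processing notes, reads went through cutadapt, STAR and SAMtools, with HTSeq and kallisto for counting, on hg38. Tool versions, annotation, strand setting and molecular identifiers were not given in the sources used here. Alignments that HTSeq set aside as ambiguous were 4.19% to 4.54% of the gene counts. Those set aside as without a feature came to 0.533 to 0.850 times the gene counts. Those set aside as not unique came to 7.47 to 13.73 times the gene counts.

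Tests on gene counts used edgeR 4.0.16 in R 4.3.3, after filterByExpr with a minimum count of 10, TMM scaling and 1 mean per group over all 12 libraries (8 residual degrees of freedom). Calls used a Benjamini-Hochberg adjusted p below 0.05 over 15810 genes. SE is the log2 fold change over the square root of F. The procedure was tested on simulated data. Alternatives were DESeq2 1.42.0, its size factors, upper-quartile scaling, no filter on low counts, a fit of only the libraries compared, rounded estimated counts of annotated transcripts, and each library left out. All members are named. Of the other lists, all further family genes could be named, and otherwise up to 4 called genes with the largest change per line, and some genes that this rule names are not reported here. The 2 genes most like each responding member were taken by Pearson r. The members and lists were chosen with earlier results of these data known. Groups come from the labels for line and treatment. With no replicate numbers in the labels, libraries were not paired.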

Additional observations from a re-analysis of the deposited data

Results flagged for a closer look

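For 3 members the change after IFN-γ differed between MALME-3M and SK-MEL-5 by the interaction test over all 15810 genes in edgeR. For *BCL2A1* the MALME-3M change minus the SK-MEL-5 change was -0.4356 on the log2 scale (adjusted p = 0.0199). The level fell in MALME-3M, and in SK-MEL-5 the estimate was 0.10 and did not pass the test. This call was lost on leaving out replicate 3 of untreated or replicate 2 of treated SK-MEL-5, or replicate 1 of untreated or replicate 2 of treated MALME-3M (adjusted p = 0.0506 to 0.0679).

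For *MCL1* the difference was 0.3385 (adjusted p = 0.0181), with the larger rise in MALME-3M, the line with the lower level. It was lost on leaving out replicate 2 of untreated or replicate 3 of treated SK-MEL-5, or replicate 3 of untreated or replicate 1 or 3 of treated MALME-3M (adjusted p = 0.0536 to 0.0946), and with transcript estimates (adjusted p = 0.123).

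For *PMAIP1* the difference was -0.4963 (adjusted p = 0.0396), with the larger rise in SK-MEL-5, which had the lower untreated level. The untreated level enters the difference itself, for *MCL1* as well, so no link between level and rise follows. The call was lost in 8 of 12 analyses that left out 1 library, each SK-MEL-5 treated library, SK-MEL-5 untreated replicates 1 and 3, MALME-3M untreated replicate 1 and MALME-3M treated replicates 2 and 3 (adjusted p = 0.0511 to 0.101), and with transcript estimates (adjusted p = 0.269).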

How the results depend on the processing

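Summed transcript estimates, which hold part of the reads, moved most counts. With them, 572 genes were called after IFN-γ in SK-MEL-5 (2060 as reported), 942 in MALME-3M (2890), 137 for the difference of the changes (705) and 7411 between the treated lines (11346). Members called for the difference were then 0 higher and 1 lower (1 and 2 as reported), and 1 was lower between the treated lines (2). Signs turned with these estimates for the difference in *BCL2* (-0.2174) and *BCL2L11* (0.4043), for the untreated lines in *BAX* (0.0149) and *BCL2L11* (-0.9302) and for the treated lines in *BCL2* (-0.2114), none of which was called either way. Upper-quartile scaling called 3 members lower in MALME-3M (1 as reported). With 1 library left out, genes called in SK-MEL-5 ranged from 1364, without untreated replicate 2, to 2111. Members called lower in MALME-3M ranged from 1 to 2, those called for the difference from 0 to 1 higher and from 0 to 2 lower, and those higher between the treated lines from 2 to 4. *BCL2L11* was called between the untreated lines without MALME-3M treated replicate 3 (adjusted p = 0.044). No paired analysis was possible because the labels give no replicate numbers. *BBC3* and *BAK1*, the members with the fewest counts, had the largest SE, up to 0.15 and 0.19 within a line, and the part of depth in this was not tested.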
